A study of Gallus gallus with 4 samples.

Results

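*HOXB4* and *HOXB9* are a pair of homeobox genes of the HOXB cluster on chicken chromosome 27, and their surroundings were examined for domains of trimethylated lysine 9 of histone H3 (H3K9me3). They were taken by name and position, 2 of the 1999 gene loci used, and the rule that takes them uses no measured value. Cultured chicken primordial germ cells (cPGCs), grown from migratory germ cells, were compared with chicken embryonic stem cells (ESCs), an in vitro derivative of early embryonic somatic cells, and neither label gives a treatment, strain, sex or age. Chromatin of each was immunoprecipitated with an H3K9me3 antibody (Abcam ab8898) and sequenced beside an input library without antibody. There was 1 library of each kind per cell type, so the values have no replicate error and were set side by side with no test. The data hold the start and end of each domain and neither a read count nor a signal, so sequencing depth is unknown.

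HOX genes encode transcription factors that give cells their position along the body axis. They lie in clusters whose gene order follows the order of their expression along that axis, *HOXB4* toward the anterior and *HOXB9* toward the posterior end. H3K9me3 marks constitutive heterochromatin, where it is bound by HP1 proteins. HOX clusters are best known for another repressive mark, trimethylated lysine 27 of histone H3, which Polycomb complexes deposit and which was not measured by these libraries.

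On galGal5, the locus of *HOXB9* (ENSGALG00000001276) lay on chromosome 27 from 3781936 to 3786433 and that of *HOXB4* (ENSGALG00000000284) from 3834726 to 3840489. Each locus includes 500 bp upstream of the transcription start and runs to the transcription end, giving 4498 bp for *HOXB9* and 5764 bp for *HOXB4*. The loci were 48292 bp apart. In the following, below means toward lower coordinates from *HOXB9*, and above means toward higher coordinates from *HOXB4*. In the RefSeq gene order of GRCg7b, a later assembly used here for order only, *HOXB13*, *HOXB8*, *HOXB7*, *HOXB6* and *HOXB5* started on the lower side of *HOXB4*, with the microRNA gene *MIR10A* beside it. *HOXB3* also started on that side, at the same base as *HOXB5* and *HOXB6*, so their order by start was not resolved. On its upper side stood *HOXB2* and *HOXB1*, followed by *SKAP1*, which encodes an adaptor protein of T cells. The symbol *HOXB9* did not occur in this part of the order. Which genes lie between *HOXB9* and *HOXB4* was therefore not read from it. The galGal5 positions of the other genes named from this order were not used here.

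Neither gene carried an H3K9me3 domain. Coverage of *HOXB9* was 0% in cPGCs and 0% in ESCs, and coverage of *HOXB4* was likewise 0% in both. The whole span of 58554 bp from the start of *HOXB9* to the end of *HOXB4* held 0 domain bases in cPGCs and 0 in ESCs. Lack of a domain was common among the loci used and sets neither gene apart. These loci are the first part of a longer list, taken in its order and not drawn at random from all genes. Of the 1999 loci, 71.1% had no domain in cPGCs, 62.2% had none in ESCs and 55.1% had none in either. Among the 92 loci used on chromosome 27 these shares were 70.7% for cPGCs, 60.9% for ESCs and 58.7% for both. Short loci are overlapped less often, and among the 894 loci under 10 kb they were 79% for cPGCs, 72.1% for ESCs and 64.8% for both. Reads that mapped to several places had been removed, so a base outside the domains may be unmarked or may not have been measurable.

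The stretch without domains around both genes was shorter in cPGCs than in ESCs. In cPGCs it ran over 135600 bp (3755101 to 3890700), against 204300 bp in ESCs (3684901 to 3889200). On the upper side the stretches ended almost together, the cPGC stretch 1500 bp later than the ESC stretch, which equals 5 windows of the 300 bp in which enrichment had been called. The difference lay on the lower side, where the cPGC stretch began 70200 bp closer to *HOXB9*. The bases free of domains in both cell types formed a stretch of 134100 bp, from 3755101 to 3889200.

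**Figure D1:**
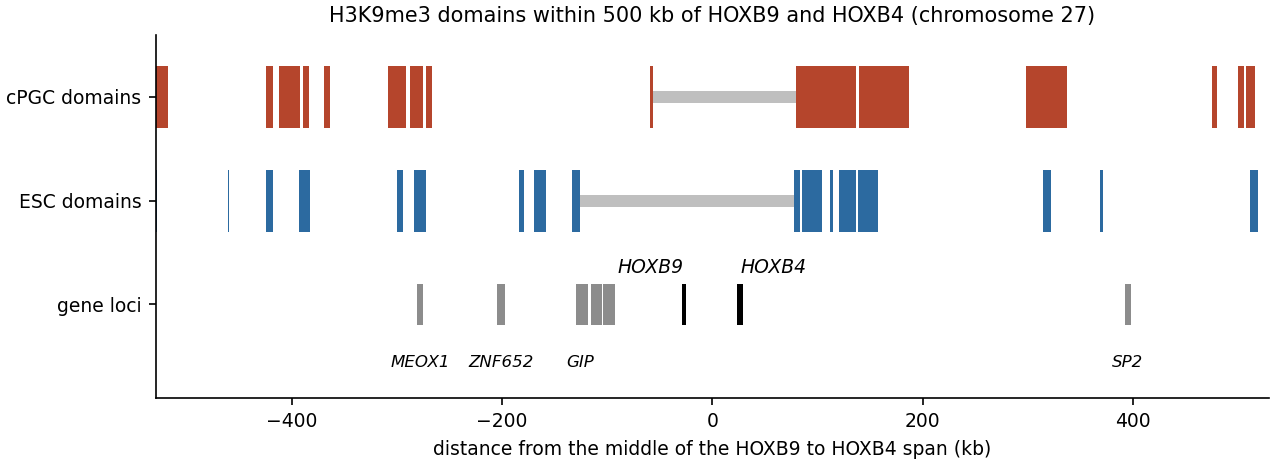
H3K9me3 domains of cPGCs (red, upper row) and ESCs (blue, middle row) and the gene loci used (lower row, *HOXB9* and *HOXB4* in black, others in grey), drawn to scale against the distance in kb from the middle of the span from *HOXB9* to *HOXB4*. Grey lines mark the stretches without domains, 135600 bp in cPGCs, against 204300 bp in ESCs, and their ends lie within 1500 bp of each other on the right and 70200 bp apart on the left.

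A single narrow domain set this difference. This was a cPGC domain of 3000 bp, from 3752101 to 3755100, at 26835 bp below *HOXB9*, and 0% of it lay in ESC domains. The nearest ESC domains were 67200 bp below it and 134100 bp above it. Domains of this width or less made up 13.1% of all cPGC domains and 15 of the 114 on chromosome 27. The positions carry no height, so the strength of this domain was not measured. Without it, the outer domains of cPGCs would have stood 345900 bp apart. When domains under 5000 bp were left out in both cell types, the cPGC stretch measured 345900 bp and the ESC stretch kept its 204300 bp, so the order of the lengths turned round.

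Among gaps between neighbouring domains, the ESC stretch was the longest of 128 on chromosome 27. Over 30 autosomes, 252 of 24461 ESC gaps were longer, and the median ESC gap was 13500 bp. In cPGCs, 8 of 113 gaps on chromosome 27 and 947 of 23101 gaps on all autosomes were longer than the stretch around the HOXB genes, and the median gap was 6600 bp. Gaps longer than the stretch of the same cell type held 37.7% of all gap bases in cPGCs and 9.68% in ESCs. For the stretch free in both cell types, 3 of 139 gaps on chromosome 27 were longer. These ranks depended on the narrow domains. With domains of at least 3000 bp the ESC stretch ranked 3 on chromosome 27 and 461 over all autosomes. With domains of at least 5000 bp the cPGC stretch ranked 2 and the ESC stretch 4 on chromosome 27, and over all autosomes they ranked 265 in cPGCs and 718 in ESCs, so that the order of the cell types turned round here as well.

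The genes differed in their distance to the nearest domain. *HOXB9* was 26835 bp from the narrow domain in cPGCs and 97035 bp from the nearest domain in ESCs, both of them below. Above *HOXB9*, the first domain followed after 104267 bp in cPGCs, against 102767 bp in ESCs. From *HOXB4* the nearest domain lay above in both cell types, 50211 bp away in cPGCs and 48711 bp away in ESCs. Below *HOXB4*, the first domain was 79625 bp away in cPGCs and 149825 bp away in ESCs. The cell types were therefore alike on the upper side and far apart on the lower side, where the cPGC distances rest on the narrow domain. Both genes lie in the same stretch, so these differences between the cell types are necessarily the same for both.

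In ESCs, *HOXB9* was farther from a domain than any other of the 92 loci used on chromosome 27, and 35 of the 1999 loci lay farther. The other HOXB genes were not among the loci used, so this place holds only within that set. It was not recomputed without domains under 3000 bp, where the ESC stretch ranked 3 on chromosome 27. In cPGCs, 24 loci of chromosome 27 and 682 of all loci lay farther from a domain than *HOXB9*. For *HOXB4*, 427 of the 1999 loci lay farther in cPGCs and 204 in ESCs, among them 9 on chromosome 27 in cPGCs and 5 in ESCs. The median distance over loci without a domain was 25238 bp in cPGCs, over 1421 loci, and 16627 bp in ESCs, over 1244 loci. In cPGCs *HOXB9* was thus close to this median, and in ESCs it was well beyond it.

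Of the 1101 loci without a domain in either cell type, 645 had their nearest domain farther away in cPGCs, 437 in ESCs and 19 at the same distance. The difference, cPGCs minus ESCs, had a median of 2383 bp, with quartiles at -4500 and 33900 bp. It was 1500 bp for *HOXB4*, inside the quartiles, and -70200 bp for *HOXB9*, where only 9 loci had a lower value. This position of *HOXB9* rests on the narrow cPGC domain, since the nearest cPGC domain of at least 5000 bp was 104267 bp away.

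**Figure D2:**
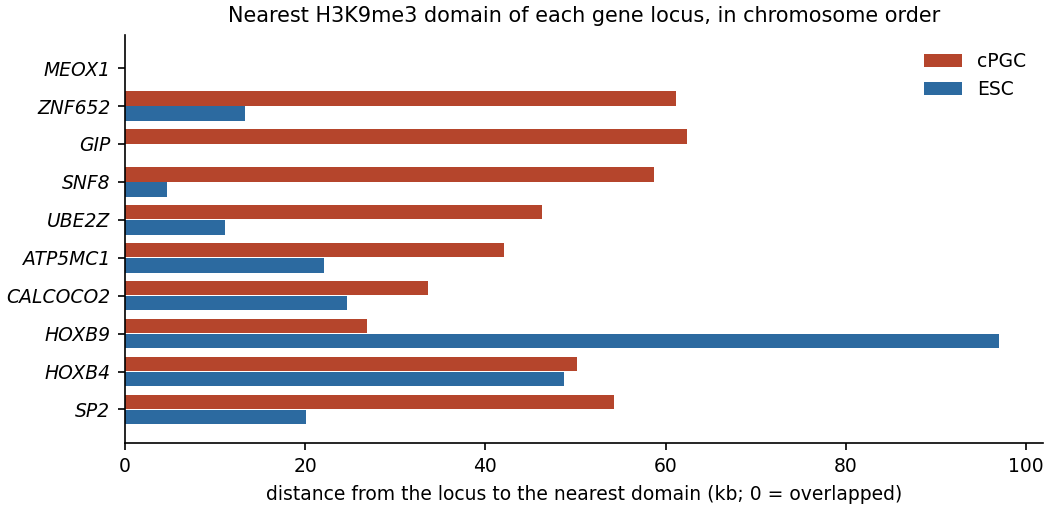
Distance in kb from each gene locus within 500 kb to the nearest H3K9me3 domain, in the order of the loci along chromosome 27, for cPGCs (red) and ESCs (blue), where no bar means that a domain overlapped the locus. *HOXB9* had the nearest domain at 26835 bp in cPGCs and 97035 bp in ESCs. *ZNF652*, *SNF8*, *UBE2Z*, *ATP5MC1*, *CALCOCO2* and *SP2* had it farther away in cPGCs, and so did *HOXB4*, at 50211 bp against 48711 bp. The cPGC distances of *HOXB9*, *CALCOCO2*, *ATP5MC1*, *UBE2Z*, *SNF8* and *GIP* all run to the same narrow domain of 3000 bp. With domains of at least 5000 bp, *HOXB9* also had it farther away in cPGCs, at 104267 bp.

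Between 3281936 and 4340489, 500 kb on each side, cPGCs had 15 domains and ESCs had 17. The share of bases inside them was 23.6% for cPGCs and 13.3% for ESCs. On the whole of chromosome 27, up to the last domain, coverage was 26.9% in cPGCs and 26.5% in ESCs. Against chromosome 27 alone, the surroundings of the HOXB genes were thus covered nearly as much in cPGCs, and much less in ESCs. The contrast depended on this reference. Domains took up 34.2% of the 30 autosomes for cPGCs, against 22.5% for ESCs. Compared with the autosomes, the surroundings were less covered in both cell types, and the higher share for cPGCs was found there too. The cPGC share was also lower with other windows, 21.2% for 250 kb and 20.8% for 1000 kb. The domains within 500 kb had a median width of 8100 bp in cPGCs, against 7800 bp in ESCs. The widest reached 57600 bp in cPGCs and 18900 bp in ESCs. Bases in domains of both cell types amounted to 100865 bp, or 40.4% of what domains covered in cPGCs and 71.7% of what they covered in ESCs. Domains without any overlap numbered 4 in cPGCs, with 18600 bp, and 5 in ESCs, with 27600 bp. These counts rested on the rule for sharing, and when a domain counted as shared only with at least 50% of its bases in the other list, 10 domains in cPGCs and 5 in ESCs were not shared.

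The upper side held most of the excess of cPGCs. Above *HOXB4*, domains covered 32.5% of 500 kb in cPGCs and 16.1% in ESCs, and below *HOXB9* 17.5% in cPGCs and 12.01% in ESCs. The domains that closed the stretch on the upper side formed a dense block of 109200 bp, from 3889201 to 3998400. It consisted of 2 domains in cPGCs, 57600 and 47400 bp wide, and of 5 domains in ESCs, between 3300 and 18900 bp wide. They filled 96.2% of the block in cPGCs and 56.6% in ESCs. The block was bounded by the end of the second cPGC domain, whereas the last ESC domain in it ended at 3968400. The share in ESCs is lowered by this choice. The wider cPGC domain overlapped 4 of the ESC domains and was the third widest of the 114 cPGC domains on chromosome 27. Coverage in cPGCs went from none to nearly full between neighbouring steps of 50 kb, because the first cPGC domain began 50211 bp above *HOXB4*, close to the border of these steps. A base is either in a domain or not, so how sharply the mark itself rises was not measured. In the first 50 kb above *HOXB4* coverage was 0% in cPGCs and 2.58% in ESCs, and in the next 50 kb it was 99.6% in cPGCs and 70.0% in ESCs. Another cPGC domain of 39000 bp, 269511 bp above *HOXB4*, enclosed an ESC domain of 7800 bp.

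**Figure D3:**
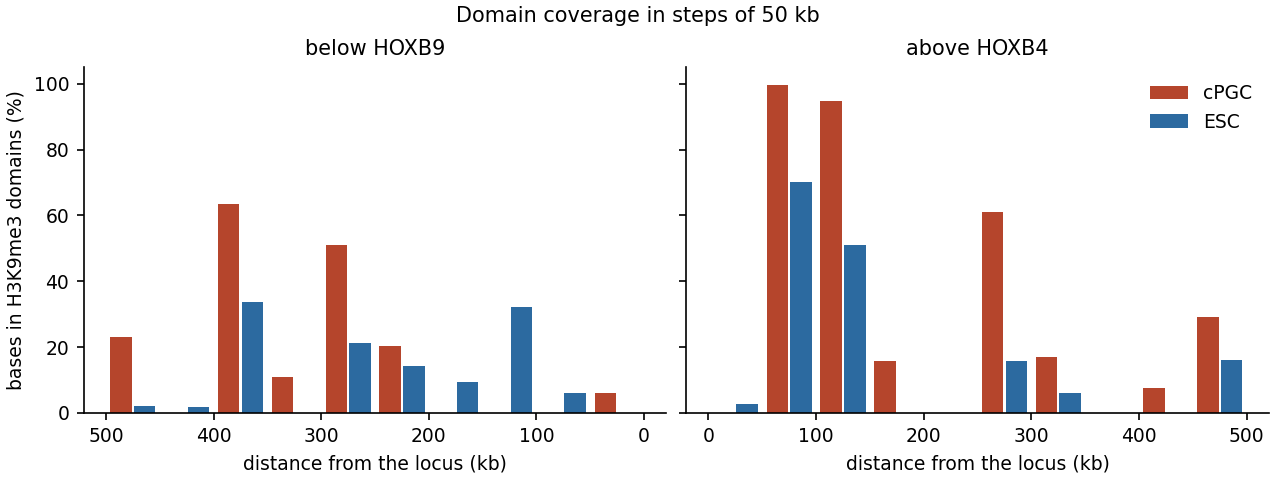
Share of bases in H3K9me3 domains (%) in steps of 50 kb below *HOXB9* (left, with the locus at the right end of the axis) and above *HOXB4* (right), in cPGCs (red) and ESCs (blue). Coverage reached 99.6% in cPGCs and 70.0% in ESCs from 50 to 100 kb above *HOXB4*, and the steps from 50 to 200 kb below *HOXB9* had domains in ESCs only.

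On the lower side the cell types alternated. From 3544801 to 3752100, a stretch of 207300 bp, cPGCs had no domain, and this was their longest gap on chromosome 27. It held 3 ESC domains, 5100, 11100 and 7500 bp wide, none of which overlapped a cPGC domain. The stretches without domains in the cell types were thus shifted against each other. This shift rested on the narrow cPGC domain of 3000 bp. Without it, the cPGC stretch would have measured 345900 bp and would have contained the whole ESC stretch. The cPGC gap held 6 of the loci used and ended short of the HOXB genes, and the ESC stretch held *HOXB9*, *HOXB4* and 4 loci below them. Over all 20 steps of 50 kb, coverage was higher in cPGCs in 13, higher in ESCs in 5 and 0% in both in 2.

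Besides the HOXB genes, 8 of the loci used lay within 500 kb, 7 below and 1 above, and 6 of them had no domain in either cell type. *CALCOCO2*, which encodes an autophagy receptor, was the closest of the loci used, at 63513 bp below *HOXB9*. Next came *ATP5MC1*, encoding a subunit of mitochondrial ATP synthase, at 71950 bp, and *UBE2Z*, encoding a ubiquitin-conjugating enzyme, at 76072 bp. *SNF8*, encoding a subunit of the ESCRT-II complex that sorts membrane proteins, followed at 88607 bp. Coverage of these genes was 0% in cPGCs and 0% in ESCs, as it was for *ZNF652*, a zinc finger gene at 168006 bp. *SP2*, encoding a transcription factor of the Sp family, lay 362803 bp above *HOXB4* and was free of domains in both. No locus used lay between *HOXB4* and *SP2*, a range that includes the dense block. In the RefSeq order *HOXB2*, *HOXB1*, *SKAP1* and further genes stand there, and their coverage was not measured. The same holds for *HOXB13*, which stands next to *CALCOCO2* in that order.

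Only *GIP* and *MEOX1* carried a domain among these neighbours. *GIP*, which encodes an intestinal hormone, had no domain in cPGCs and was covered over 40.3% of its bases in ESCs, by the domain that bounds the ESC stretch on the lower side. *MEOX1*, a homeobox gene of the somites at 245759 bp below *HOXB9*, had domains over 93.8% of its locus in cPGCs and over 100% in ESCs. *MEOX1* and *HOXB9*, less than 250 kb apart, thus stood at nearly full and at no coverage in both cell types.

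Other homeobox genes were described beside the HOXB genes. Of the 13 loci described here whose annotation contains the word homeobox, 7 were overlapped in cPGCs, against 578 of all 1999 loci, and 6 in ESCs, against 755 of all loci, and 5 had no domain in either (38.5%, against 55.1% of all loci). When a domain had to cover at least 10% of the locus, 4 homeobox loci were overlapped in cPGCs and 6 in ESCs. At that threshold 74.9% of all loci counted as free of domains in cPGCs and 70.1% in ESCs. The median length of the homeobox loci was 10247 bp, against 11615 bp over all loci. Without *HOXB4* and *HOXB9*, the other 11 homeobox loci had a median length of 23869 bp, and 3 of them (27.3%) had no domain in either cell type. The 5 free loci were *HOXB4*, *HOXB9*, *IRX5*, *TLX3* and *LHX9*, and apart from *LHX9*, which acts in the forming gonad, they were the shortest of the list. Besides *MEOX1*, the most covered were *LMX1A*, a gene of dopamine neuron precursors, at 93.8% in cPGCs and 71.2% in ESCs, and *PRRX1*, a gene of limb mesenchyme, at 59.5% in cPGCs and 94.5% in ESCs. For *TSHZ3* coverage was 20.1% in cPGCs, against 22.9% in ESCs, and for *ZFHX3* it was 7.61% in cPGCs, against 34.9% in ESCs. *LHX2* was overlapped in ESCs only, at 13.9%. *LHX6* and *PBX3* were overlapped in cPGCs only, at 2.20% for *LHX6* and 7.23% for *PBX3*, which also belongs to the HOX regulator list below.

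**Figure D4:**
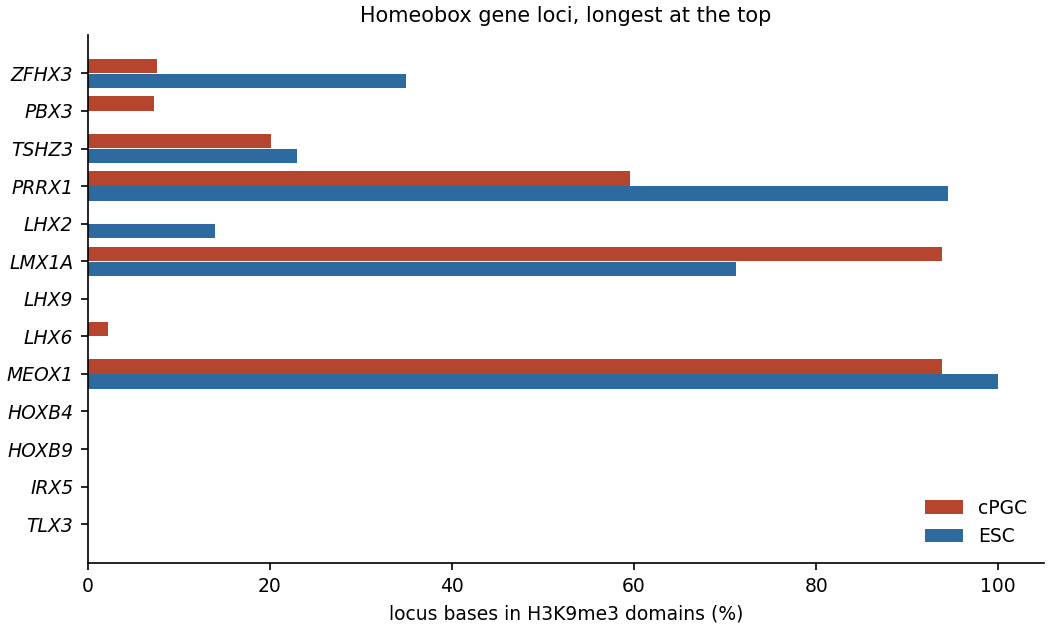
Share of each homeobox gene locus in H3K9me3 domains (%), in cPGCs (red) and ESCs (blue), with the longest locus at the top. *HOXB4*, *HOXB9*, *IRX5*, *TLX3* and *LHX9* show no bar because coverage was 0% in both cell types, and *MEOX1* reached 93.8% in cPGCs and 100% in ESCs.

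Of 50 genes known to act with HOX proteins or on HOX genes, 7 had a locus among those used. *PBX3*, which encodes a partner that binds DNA together with HOX proteins, had 7.23% of its locus in cPGC domains and 0% in ESC domains. *ALDH1A2* encodes an enzyme that makes retinoic acid, an inducer of HOX genes, with 2.92% of its long locus in cPGC domains and 3.48% in ESC domains. Of the Polycomb genes, *EZH1* had no domain in cPGCs and 27.02% coverage in ESCs, and *SUZ12* had no domain in either. *RBBP5*, *WDR5* and *ASH2L* encode subunits of complexes that methylate lysine 4 of histone H3. *RBBP5* had 13.9% coverage in ESCs and none in cPGCs, and *WDR5* and *ASH2L* had none in either. In this list 2 genes were overlapped in cPGCs and 3 in ESCs, so that 71.4% of it had no domain in cPGCs, against 71.1% of all loci, and 57.1% had none in ESCs, against 62.2% of all loci.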

How the data were processed

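The authors aligned paired reads to galGal5 with Bowtie 2 and kept proper pairs with a unique position. Islands of enrichment over input came from SICER, with a window of 300 bp, and were filtered by false-discovery rate or by overlap with broad MACS2 peaks, on main autosomal scaffolds. The deposited file gives domain positions in bp, with no count or signal, so no interval from counting reads can be given. Starts and ends count from 0, and 1 was added to both.

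Gene loci and descriptions came from the Ensembl annotation of galGal5 as listed with the study, of which the first 1999 loci were used. Other genes, expression values and sequences were not analysed here. Coverage, distances and gaps were computed with Python 3.11.15, numpy 2.4.6 and pandas 2.3.3, and figures with matplotlib 3.10.9. The routines were tested on simulated domains. Sharing required an overlap of at least 1 bp between the lists. The genes, lists and measures were chosen with earlier results of these data known. The text names both HOXB genes, all loci within 500 kb, and, from the homeobox and HOX regulator lists, all overlapped genes and up to 4 others of each list, apart from a gene that is not reported here and was left out of both lists. Alternatives joined domains at 3000 bp or less, dropped domains under 3000 or 5000 bp, and changed the window, the overlap and the loci.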

Additional observations from a re-analysis of the deposited data

How the results depend on the processing

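Of 117 alternative values, 83 stayed within the limits set (1.5 times for counts, the 95% Wilson interval for shares, no change for lengths), 33 moved and 1 changed direction. Coverage of both HOXB genes was 0% under each alternative run, including loci widened by 5000 bp on each side. These values, counted among the 83, could not have come out otherwise and are no check. Dropping domains cannot raise 0%, and joining at 3000 bp cannot close stretches of this length. The nearest domain lay 26835 bp away or more, beyond the widening. Joining domains or keeping those of at least 3000 bp left the lengths of the stretches and the distances as reported. Neither could affect the narrow cPGC domain, which is exactly 3000 bp wide with gaps of 207300 and 135600 bp beside it. These alternatives therefore could not test the difference between the cell types. Dropping domains under 3000 bp did move the rank of the ESC stretch, to 461 of all gaps and 3 on chromosome 27. With domains of at least 5000 bp, the stretch in cPGCs was 345900 bp, its difference from ESCs turned from -68700 to 141600 bp, and the nearest cPGC domain was 104267 bp from *HOXB9*, by the loss of the domain of 3000 bp. Domains without overlap then numbered 2 in cPGCs and 3 in ESCs. The number of domains scaled with the window, 5 in cPGCs and 9 in ESCs at 250 kb, and 30 in cPGCs and 34 in ESCs at 1000 kb. Coverage was 21.2% in cPGCs and 16.6% in ESCs for the window of 250 kb. For that of 1000 kb it was 20.8% in cPGCs and 12.8% in ESCs. Loci without a domain in cPGCs, in ESCs and in both made up 73.1%, 67.4% and 59.9% with domains of at least 3000 bp, 77.3%, 73.9% and 66.5% with domains of at least 5000 bp, and 74.9%, 70.1% and 62.8% when a domain had to cover 10% of the locus. For loci under 10 kb, which were singled out after the data had been seen, the shares were 79.0%, 72.1% and 64.8%, and on chromosome 27 the share free in both was 58.7%. At 10% of the locus, 4 of the 13 homeobox genes were overlapped in cPGCs and 6 in ESCs. Of the 7 HOX regulators, 0 were overlapped in cPGCs and 2 in ESCs at that threshold, where 74.9% of all loci were free in cPGCs and 70.1% in ESCs. No paired analysis was possible because there is 1 library of each kind. Depth is unknown, so a list from a deeper library can hold more or wider domains.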
